A study of Mus musculus with 9 samples.

Results

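The genes of antigen presentation by the major histocompatibility complex (MHC) were followed in RNA sequencing of mouse hippocampus. They were chosen by name: B2m, H2-K1, H2-D1, Tap1, Tap2 and Nlrc5 of the class I pathway, and H2-Aa, H2-Ab1, H2-Eb1 and Cd74 of the class II pathway. All 10 were among the 55471 genes of the count table, and all 10 were among the 17396 genes that had enough counts to be tested.

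The study measured 9 libraries, 3 in each of 3 groups, from the hippocampus of 9-month-old female mice. The LP-10d-treated 3xTg group received 10 mg/kg of the compound LP-10d by mouth, 4 times a week, for 1 month. The 3xTg vehicle group and the wild-type (WT) vehicle group received blank solvent by mouth at the same weekly frequency. The 3xTg mouse is a model of Alzheimer's disease that carries human mutant APP and tau transgenes, both driven by the neuronal Thy1 promoter, on a mutant presenilin allele.

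The 3xTg genotype was labelled APPSwe/tauP301L/PS1M146V in one library. The number in the presenilin part of the label climbed by 1 in each further library, through PS1M147V and PS1M148V in the vehicle group to PS1M149V, PS1M150V and PS1M151V in the treated group. The labels gave no other difference between these mice. The WT mice were labelled C57BL/6J. The labels did not name a littermate control, so the transgenes and the strain background cannot be told apart in any comparison with WT. Nor did they state that each replicate was its own animal; the p-values below then reflect library-to-library spread, which may be technical.

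MHC class I molecules are found on nearly all nucleated cells and show peptides made inside the cell to CD8 T cells. Each is a heavy chain, such as the products of H2-K1 and H2-D1, bound to beta-2-microglobulin (B2m), and it is loaded with peptides that the TAP transporter (Tap1 and Tap2) pumps into the endoplasmic reticulum. Class II molecules are pairs of an alpha and a beta chain, carried by the invariant chain Cd74, and show ingested peptides to CD4 T cells. In healthy brain, class I is low in most cells, and class II is largely limited to few microglia and to macrophages and dendritic cells of the meninges, the choroid plexus and the vessels. NLRC5 is the transactivator of class I genes and CIITA that of class II genes; both act through a promoter module that also binds RFX and NF-Y.

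The promoters of both classes are shown because that shared module lies in them. RefSeq promoter sequences (build GRCm38.p6, 250 bases before and 50 after the gene start) were matched by symbol to 6 of the 10 genes, and the 5 below carry the elements described next. They are read on the strand of the gene, at chr17:34000298-34000597 (minus strand) for H2-K1, chr17:35262844-35263143 (plus) for H2-D1, chr17:34287774-34288073 (minus) for H2-Aa, chr17:34305617-34305916 (plus) for H2-Eb1 and chr2:122147437-122147736 (plus) for B2m. The H2-D1 window lies inside that gene as annotated (35262730 to 35267499), so its RefSeq start is downstream of the annotated start. Capitals mark matches to the letters searched.
H2-K1: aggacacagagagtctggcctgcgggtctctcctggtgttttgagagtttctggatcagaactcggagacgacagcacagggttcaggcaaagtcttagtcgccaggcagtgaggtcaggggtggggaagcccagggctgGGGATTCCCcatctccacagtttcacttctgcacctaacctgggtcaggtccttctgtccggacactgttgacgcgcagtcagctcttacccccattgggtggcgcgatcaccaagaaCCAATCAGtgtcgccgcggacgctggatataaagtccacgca
H2-D1: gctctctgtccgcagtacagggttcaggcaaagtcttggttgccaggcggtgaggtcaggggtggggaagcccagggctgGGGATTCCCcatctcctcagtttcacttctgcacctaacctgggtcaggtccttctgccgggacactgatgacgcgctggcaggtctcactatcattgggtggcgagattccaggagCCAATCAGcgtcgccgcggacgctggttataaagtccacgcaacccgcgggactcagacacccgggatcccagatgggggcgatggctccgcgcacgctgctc
H2-Aa: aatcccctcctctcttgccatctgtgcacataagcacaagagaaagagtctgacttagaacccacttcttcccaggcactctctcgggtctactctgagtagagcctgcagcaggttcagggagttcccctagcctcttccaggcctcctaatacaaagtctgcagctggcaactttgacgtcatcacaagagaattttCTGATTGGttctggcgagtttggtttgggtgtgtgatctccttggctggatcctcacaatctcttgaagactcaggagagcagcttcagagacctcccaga
H2-Eb1: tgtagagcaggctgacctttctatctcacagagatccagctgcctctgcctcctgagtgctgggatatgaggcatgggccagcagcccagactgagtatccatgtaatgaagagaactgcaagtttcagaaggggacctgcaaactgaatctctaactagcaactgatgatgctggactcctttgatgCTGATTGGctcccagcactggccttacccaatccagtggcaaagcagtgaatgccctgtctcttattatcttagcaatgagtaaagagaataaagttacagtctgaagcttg
B2m: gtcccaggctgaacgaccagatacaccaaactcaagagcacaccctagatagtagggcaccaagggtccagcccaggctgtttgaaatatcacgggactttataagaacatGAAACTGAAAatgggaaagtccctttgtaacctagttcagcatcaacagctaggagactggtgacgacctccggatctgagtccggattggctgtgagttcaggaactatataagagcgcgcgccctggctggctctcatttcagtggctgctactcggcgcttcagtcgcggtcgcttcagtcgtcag

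3 motifs were searched on both strands. The Y-box motif CTGATTGG, the NF-Y site of MHC promoters, was found in 5 of the 6 promoters. These were H2-K1, H2-D1, Tap1, H2-Aa and H2-Eb1, and 4.1% of 32851 RefSeq promoters of the same length held the motif. Its letters are those of MHC promoters, so this excess followed from the choice of motif. The count does not show which genes carry the module, and B2m held the shorter ATTGG without the full motif. In the class II genes the motif stood in the direction of the gene, beginning at base -51 of H2-Aa and -62 of H2-Eb1, with the start site counted as 0. In H2-K1, H2-D1 and Tap1 the motif stood in the opposite direction, where it reads CCAATCAG. The CCAATCAG match began at base 8 of H2-K1, after the start site, at -53 of H2-D1 and at -222 of Tap1. In H2-K1 and H2-D1 an unmarked ATTGG in the direction of the gene lay ahead of this match. Which of these is the Y box of the shared module was not tested.

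The palindromic kappaB element, GGGATTCCC, to which NF-kappaB factors bind, was found in H2-K1 and H2-D1 and in 0.353% of all promoters. It began 118 bases ahead of the CCAATCAG match in H2-K1 and 117 bases ahead of that match in H2-D1. A core of the interferon-stimulated response element, GAAA followed after 2 free bases by a second GAAA, was found in B2m, beginning at base -139, and in 3.44% of all promoters. The search took exact letters only. In H2-K1 and H2-D1 the letters TTTCACTTC after the kappaB element held a GAAA in the opposite direction without the full motif. Which promoters carry a working response element was not tested. None of the 3 motifs overlapped another in these promoters. Such matches describe the letters and show no binding.

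On build mm10, 7 of the 10 genes lay on chromosome 17 within 1271.5 kb, from base 33996017 to base 35267499. In order along it these were H2-K1 (33996017 to 34000347), Tap1 (34187553 to 34197225), Tap2 (34203527 to 34216321), H2-Ab1 (34257689 to 34269419), H2-Aa (34282744 to 34287823), H2-Eb1 (34305867 to 34316674) and H2-D1 (35262730 to 35267499). B2m lay on chromosome 2 (122147686 to 122153083), Nlrc5 on chromosome 8 (94434356 to 94527272) and Cd74 on chromosome 18 (60803848 to 60812652). All 10 are annotated as protein-coding genes, and their values are the counts per gene of the deposited table. Exons of Tap1 overlapped Psmb9 on the other strand over 212 bases (3.871% of its exon bases), and exons of Tap2 overlapped the non-coding gene Gm15821 on the other strand over 533 bases (14.097%). Of the 100-base windows of their transcripts, 3.589% in H2-D1 and 0.957% in H2-K1 were identical to a window of another gene, most often of H2-Q1 and of H2-Q10. The share was 4.988% in Tap2 and 1.931% in Tap1, most often with the overlapping Gm15821 and Psmb9, and 0 in the other 6 genes. Reads from such stretches could be counted for either gene, because the counting rule is not given in the sources used here.

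The libraries held between 16582086 and 19170969 counts. Levels are given below as CPM, counts scaled to a common library size with TMM factors, and levels of different genes are compared only in the deposited FPKM values, which divide by gene length. Hippocampal markers (Prox1, Wfs1, Neurod6 and 7 others) summed to between 945 and 1646.7 CPM and all 10 were present in each group. Choroid plexus markers (Ttr, Folr1, Aqp1 and 7 others), of the secretory epithelium that borders the hippocampus in the ventricles, spanned 43.5 to 4456.6 CPM. Markers of striatum and thalamus summed to 1366 CPM in 3xTg vehicle replicate 2 and to between 162 and 381 CPM in the other 8 libraries, and mitochondrial genes took 5.04% of counts in WT replicate 3, against 2.28% to 2.86% in the others.

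Per length, the light chain was by far the most abundant of the 10 transcripts. B2m averaged 69.5 ± 14.5 FPKM (SD over the 9 libraries), ahead of the heavy chains H2-D1 at 24.8 ± 6.36 FPKM and H2-K1 at 16.7 ± 4.66 FPKM. Cd74 followed at 4.09 ± 3.04 FPKM, and was the highest of the class II genes. Then came Tap2 at 2.02 ± 0.376, H2-Eb1 at 1.81 ± 1.23, H2-Ab1 at 1.59 ± 1.36 and Tap1 at 1.21 ± 0.271 FPKM. The lowest were H2-Aa at 0.68 ± 0.54 FPKM and the transactivator Nlrc5 at 0.352 ± 0.151 FPKM. From Cd74 down to Nlrc5, each gene differed from its neighbour in this order by less than 1 SD of the more variable of the pair. The steps from B2m to H2-D1, from H2-D1 to H2-K1 and from H2-K1 to Cd74 were each larger than that.

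The class II genes varied far more between libraries than the class I genes. The highest library exceeded the lowest 14.9-fold for H2-Ab1, 7.53-fold for Cd74, 7.37-fold for H2-Aa and 6.01-fold for H2-Eb1. For the class I genes this ratio was between 1.65 (Tap2) and 3.65 (Nlrc5). WT replicate 2 was the highest of the 9 libraries for 9 of the 10 genes, and B2m was highest in WT replicate 3.

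B2m, the invariant light chain of all classical class I molecules, had 49.3, 56.6 and 52.5 CPM in the LP-10d-treated 3xTg libraries, 48.9, 51.8 and 57.9 CPM in the 3xTg vehicle libraries, and 59.5, 71.6 and 92.3 CPM in the WT libraries. All 6 3xTg libraries lay below all 3 WT libraries, and the treated and vehicle 3xTg libraries overlapped. The group means were 52.8 ± 3.66, 52.9 ± 4.63 and 74.5 ± 16.6 CPM in LP-10d-treated 3xTg, 3xTg vehicle and WT vehicle libraries (SD, n = 3 each).

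H2-K1, the K heavy chain, had 43.3, 53.5 and 36.9 CPM in the treated 3xTg libraries, 51.0, 47.3 and 45.1 CPM in the 3xTg vehicle libraries, and 51.2, 78.2 and 34.2 CPM in the WT libraries. H2-D1, the D heavy chain, had 56.3, 69.2 and 52.4 CPM in the treated 3xTg libraries, 60.3, 60.1 and 63.9 CPM in the 3xTg vehicle libraries, and 64.1, 100 and 47.3 CPM in the WT libraries. The WT group held both the highest and the lowest library for each heavy chain, so it enclosed both 3xTg groups. The chains kept a near-constant proportion, with H2-K1 at 0.618 to 0.742 of the H2-D1 FPKM over the 9 libraries. B2m did not follow them in WT replicate 3, where it stood at 5.85 times the H2-D1 FPKM, against 2.15 to 3.01 times in the other 8 libraries; this is the library with 5.04% mitochondrial counts, whose part in the ratio was not tested.

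Tap1, one chain of the peptide transporter, had 5.81, 6.82 and 6.64 CPM in the treated 3xTg libraries, 6.05, 5.11 and 5.94 CPM in the 3xTg vehicle libraries, and 8.05, 9.59 and 5.45 CPM in the WT libraries. Tap2, the other chain, had 7.67, 9.25 and 6.48 CPM in the treated 3xTg libraries, 8.21, 6.47 and 6.97 CPM in the 3xTg vehicle libraries, and 8.45, 9.43 and 5.73 CPM in the WT libraries. The groups overlapped for both. Nlrc5, the class I transactivator, had 2.93, 3.26 and 1.92 CPM in the treated 3xTg libraries, 1.58, 3.12 and 2.12 CPM in the 3xTg vehicle libraries, and 3.6, 5.76 and 2.56 CPM in the WT libraries. These rest on 30 to 110 counts per library, and the 3 groups overlapped here as well.

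**Figure D1:**
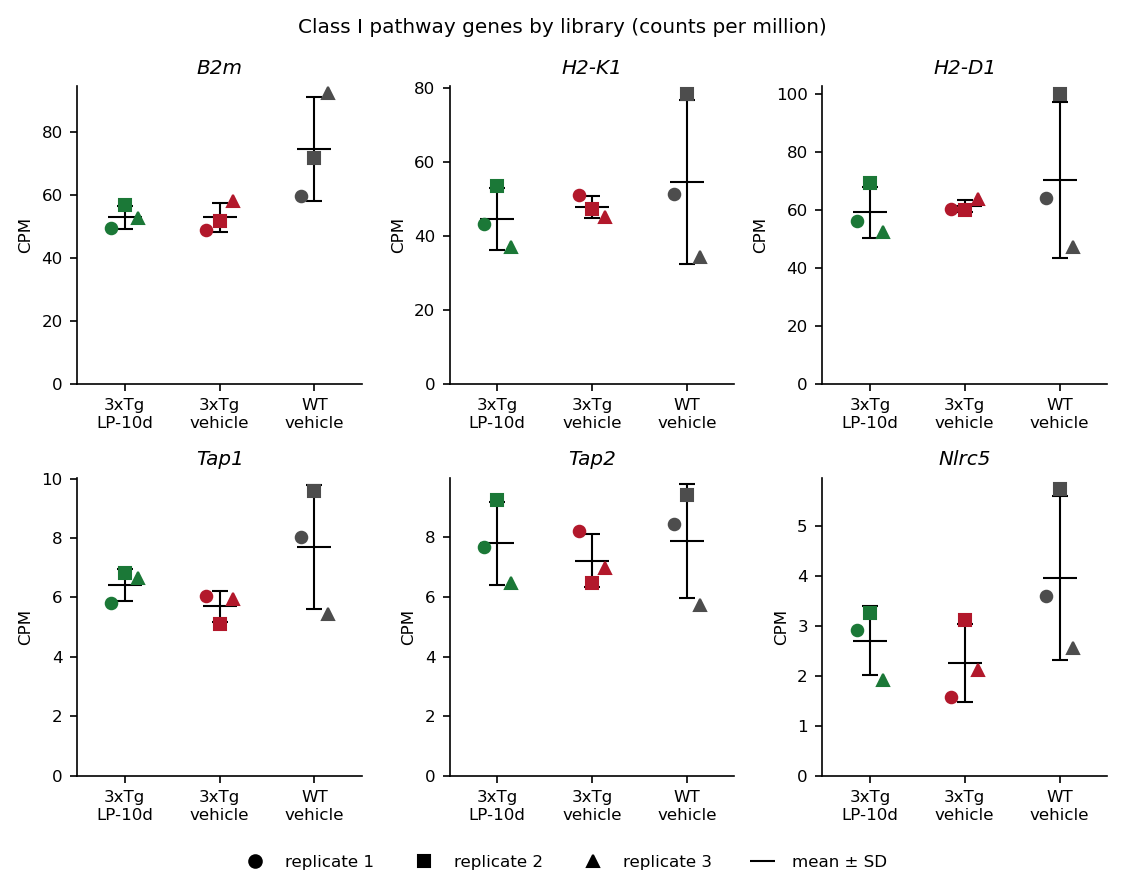
Levels of the 6 class I genes in CPM (vertical axes, starting at 0), for LP-10d-treated 3xTg, 3xTg vehicle and WT vehicle libraries; each marker is 1 library, its shape the replicate, and the bar is the mean ± SD (n = 3). For B2m every 3xTg library lies under 59.5 CPM, the lowest WT value, while for the other 5 genes the WT libraries overlap the 3xTg libraries.

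H2-Aa encodes the alpha chain and H2-Ab1 the beta chain of the I-A class II molecule. H2-Aa had 2.6, 3.56 and 0.988 CPM in the treated 3xTg libraries, 1.89, 1.36 and 1.14 CPM in the 3xTg vehicle libraries, and 1.26, 7.28 and 3.06 CPM in the WT libraries. H2-Ab1 had 3.67, 5.45 and 0.823 CPM in the treated 3xTg libraries, 2.58, 2.44 and 2.29 CPM in the 3xTg vehicle libraries, and 2.28, 12.3 and 4.73 CPM in the WT libraries. In both genes the 3xTg vehicle libraries lay close together, while treated replicate 3 and WT replicate 1 were low within their groups. The lowest H2-Ab1 value rested on 15 counts, for which a 95% Poisson interval runs from 0.461 to 1.36 CPM, and the highest on 234 counts, with an interval from 10.7 to 13.9 CPM; these intervals cover counting error only.

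H2-Eb1, the beta chain of the I-E molecule, whose alpha chain gene carries a null allele in C57BL/6 mice, had 4.29, 3.91 and 1.48 CPM in the treated 3xTg libraries, 2.31, 2.61 and 2.07 CPM in the 3xTg vehicle libraries, and 1.49, 8.91 and 4.45 CPM in the WT libraries. Cd74, the invariant chain that escorts class II molecules to the endosome, had 6.15, 8.71 and 2.96 CPM in the treated 3xTg libraries, 4.84, 4.71 and 3.97 CPM in the 3xTg vehicle libraries, and 2.46, 18.5 and 9.34 CPM in the WT libraries. In both, treated replicate 3 and WT replicate 1 were again the lowest libraries of the 9 and WT replicate 2 was the highest. The 4 class II genes together gave 16.7, 21.6 and 6.26 CPM in the treated 3xTg libraries, 11.6, 11.1 and 9.47 CPM in the 3xTg vehicle libraries, and 7.48, 47.0 and 21.6 CPM in the WT libraries. WT libraries held the second lowest and the highest sum of all 9.

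**Figure D2:**
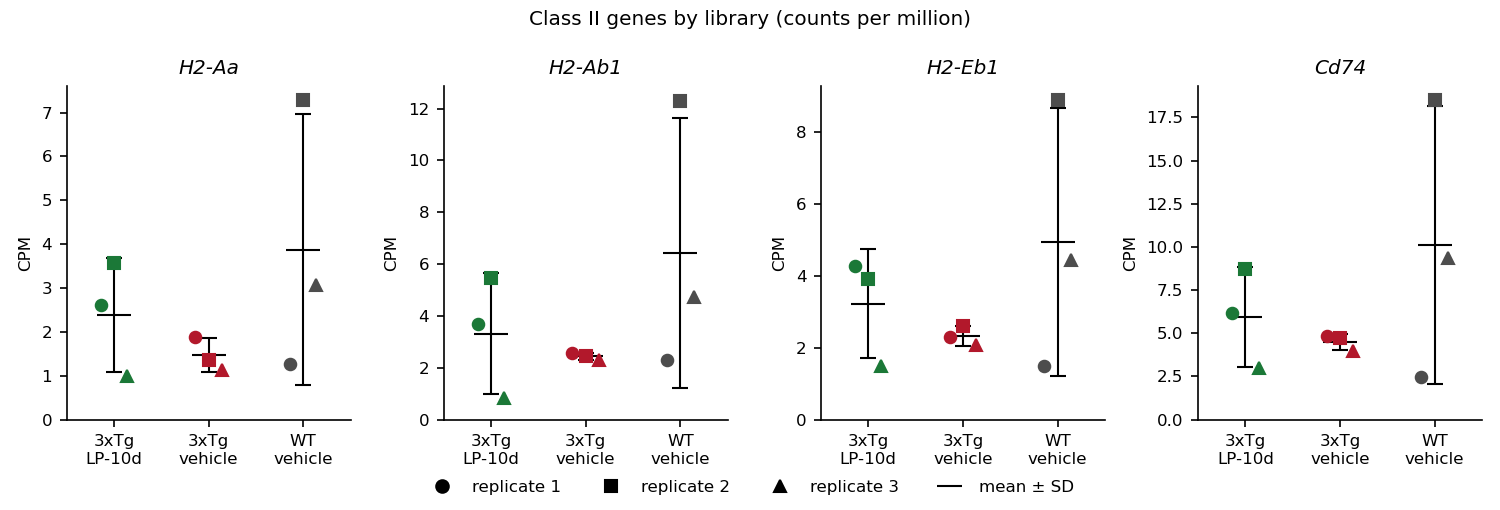
Levels of the 4 class II genes in CPM (vertical axes, starting at 0) by group; each marker is 1 library, its shape the replicate, and the bar is the mean ± SD (n = 3). The 3xTg vehicle libraries are tight, whereas WT replicate 2 stands at 7.28 to 18.5 CPM and WT replicate 1 at 1.26 to 2.46 CPM.

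The comparison of 3xTg vehicle with WT vehicle asks how the disease model differs from normal mice. The fold change was below 0 (lower in 3xTg vehicle) for 10 of the 10 MHC genes, against 49.8% of all tested genes. None of the 10 passed an adjusted p of 0.05 in the quasi-likelihood test of edgeR, adjusted by Benjamini-Hochberg over all 17396 genes, and this comparison called 0.00575% of genes, or 1 gene. DESeq2 and limma-voom called none of the 10 either; over all genes DESeq2 called 340 and limma-voom called 1. At an unadjusted p under 0.05, 3 of the 10 were lower (B2m, Nlrc5 and H2-Aa), against 7.08% of all genes. This count depended on single libraries: it was 5 without WT replicate 1, 1 without WT replicate 2 and 7 without WT replicate 3. It was also 1 without 3xTg vehicle replicate 1, 3xTg vehicle replicate 3 or treated replicate 1.

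The fitted log2 fold change of 3xTg vehicle over WT was -0.49 ± 0.145 (SE) for B2m, with a 95% interval from -0.82 to -0.17, an unadjusted p of 0.00665 and an adjusted p of 0.218 in edgeR. B2m was the 1 gene of the 10 whose groups did not overlap, as was so for 7.99% of all genes in this direction. Both heavy chains had small fold changes, -0.19 ± 0.248 for H2-K1 and -0.20 ± 0.223 for H2-D1. Tap1 stood at -0.43 ± 0.199, Tap2 at -0.13 ± 0.205 and Nlrc5 at -0.82 ± 0.346. Their edgeR adjusted p-values lay between 0.334 and 0.795.

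Of the 10 genes, those of class II had the largest fold changes of 3xTg vehicle over WT and the largest errors, namely -1.41 ± 0.609 for H2-Aa, -1.41 ± 0.638 for H2-Ab1, -1.10 ± 0.553 for H2-Eb1 and -1.17 ± 0.577 for Cd74 (log2, SE). Their edgeR adjusted p-values lay between 0.342 and 0.4. The interval of Cd74 ran from -2.46 to 0.11. The median fold change was -1.29 over the 4 class II genes, -0.32 over the 6 class I genes and -0.66 over all 10, beside 0.000661 over all tested genes.

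The size of these differences depended on single WT libraries. Without WT replicate 2 the log2 fold changes of 3xTg vehicle over WT were -0.56 for H2-Aa, -0.53 for H2-Ab1, -0.36 for H2-Eb1 and -0.39 for Cd74. Those of H2-K1, H2-D1 and Tap2 took the other sign, at 0.16, 0.14 and 0.03, and Tap1 and Nlrc5 were at -0.24 and -0.44. Without WT replicate 3 the class I values were farther from 0, at -0.45 for H2-K1, -0.43 for H2-D1, -0.64 for Tap1, -0.32 for Tap2 and -1.07 for Nlrc5. B2m went the other way, at -0.52 without WT replicate 2 and -0.32 without WT replicate 3. Without WT replicate 1 the class II values lay between -1.83 and -1.53.

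**Figure D3:**
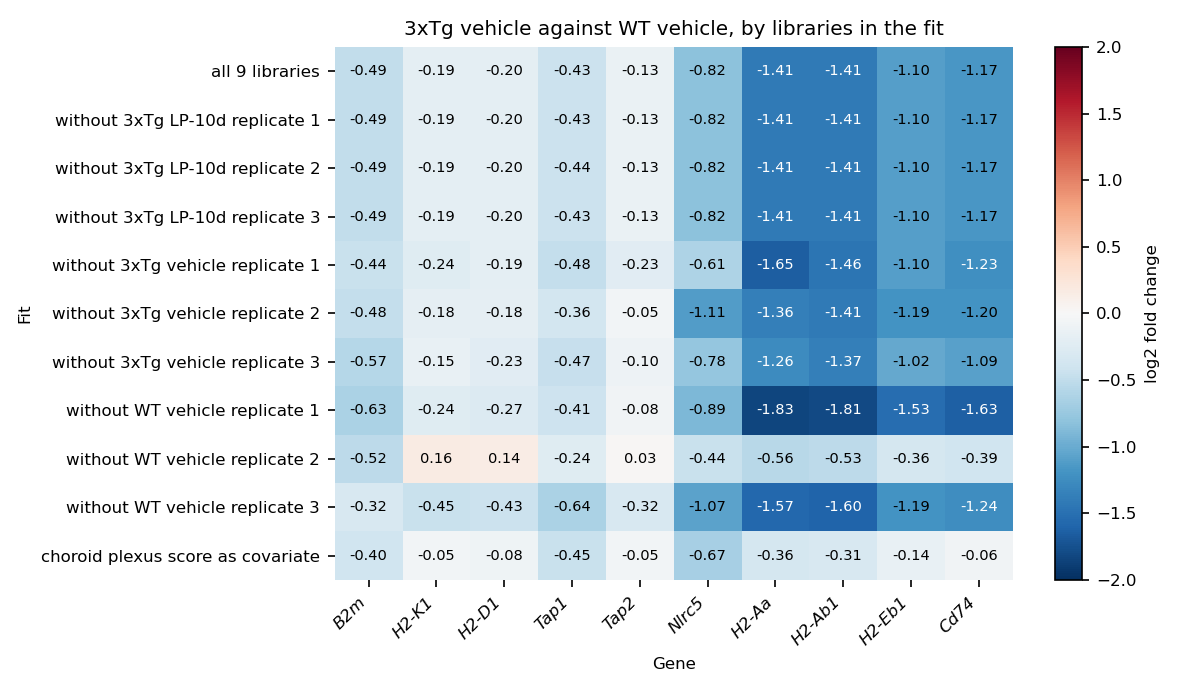
Fitted log2 fold change of 3xTg vehicle over WT vehicle for each of the 10 genes (columns) in fits of all 9 libraries, without each library in turn, and with the choroid plexus score as a covariate (rows); blue is lower and red higher in 3xTg vehicle. The class II columns fade without WT replicate 2, where Cd74 is at -0.39, and with the covariate, where it is at -0.06.

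Treatment with LP-10d in 3xTg mice was set against 3xTg vehicle to see how the compound moved the model. Means were higher in the treated libraries for 7 of the 10 genes (Tap1, Tap2, Nlrc5 and all 4 class II genes) and lower for B2m, H2-K1 and H2-D1; 50.1% of all genes had a fold change below 0. None was called by edgeR, DESeq2 or limma-voom, none had an unadjusted p under 0.05 in edgeR, and edgeR called 0.0% of all genes, with 2.9% at an unadjusted p under 0.05. For none of the 10 were the groups apart, against 5.81% of all genes lower and 5.82% higher in treated libraries without overlap.

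The log2 fold change of treated over vehicle 3xTg was -0.0026 ± 0.146 for B2m, with a 95% interval from 0.797-fold to 1.25-fold. For H2-K1 it was -0.10 ± 0.249, for H2-D1 -0.05 ± 0.223, for Tap1 0.17 ± 0.203, for Tap2 0.11 ± 0.206 and for Nlrc5 0.25 ± 0.366. The class II genes were at 0.68 ± 0.657 for H2-Aa, 0.43 ± 0.691 for H2-Ab1, 0.46 ± 0.586 for H2-Eb1 and 0.39 ± 0.604 for Cd74. The interval of H2-Aa ran from 0.583-fold to 4.42-fold, and the intervals of the other 3 class II genes likewise included both directions. Every adjusted p was 1.0. Without treated replicate 2 the value of H2-Ab1 was -0.12.

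LP-10d-treated 3xTg libraries were also set against WT, which shares the WT libraries with the first comparison. All 10 genes had a fold change below 0 (lower in treated 3xTg), against 50.5% of all genes; none was called by edgeR, DESeq2 or limma-voom, and edgeR called 0.0% of genes. B2m was the 1 gene with an unadjusted p under 0.05 in this direction (4.67% of all genes), a count that was 5 without WT replicate 1 and 5 without WT replicate 3, and it was the 1 gene without overlap (6.89% of all genes). Its log2 fold change was -0.50 ± 0.145, with an interval from -0.82 to -0.17, an unadjusted p of 0.00648 and an edgeR adjusted p of 0.527. The class II genes were at -0.73 ± 0.568 for H2-Aa, -0.98 ± 0.616 for H2-Ab1, -0.64 ± 0.532 for H2-Eb1 and -0.78 ± 0.564 for Cd74. Without WT replicate 2, H2-Aa and H2-Eb1 took the other sign at 0.12 and 0.11, and H2-K1 and H2-D1 were at 0.06 and 0.09.

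**Figure D4:**
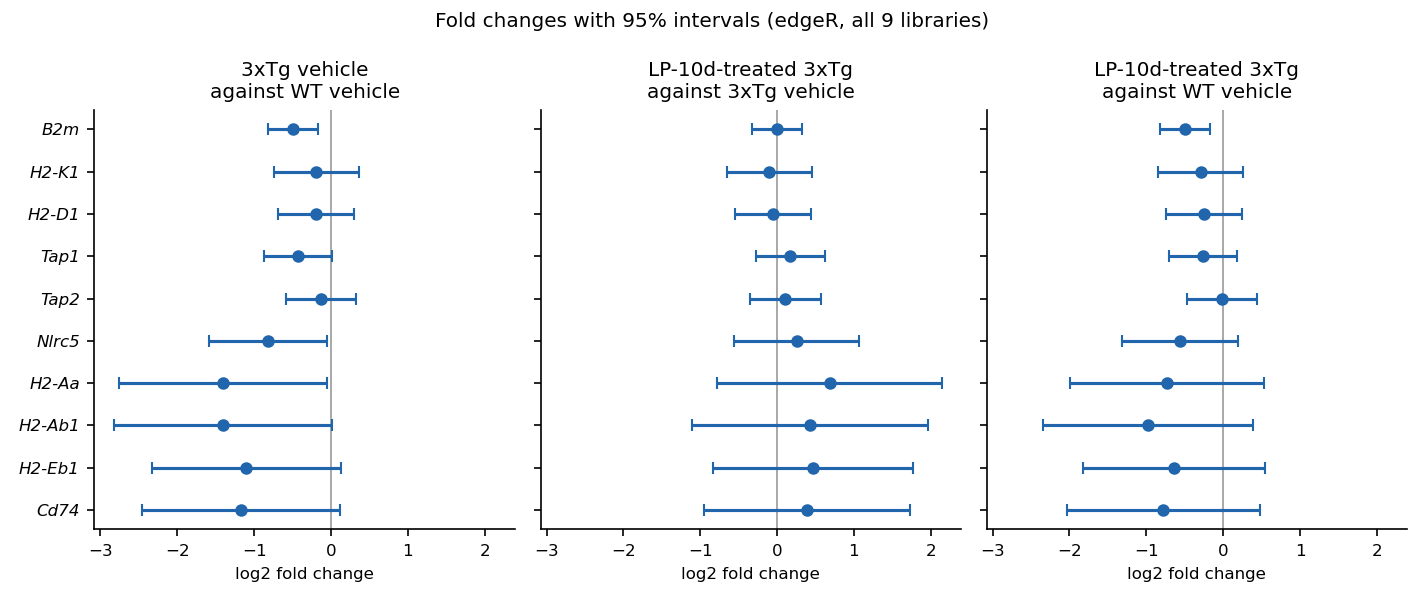
Fitted log2 fold changes of the 10 genes (points) with 95% intervals (bars) in the 3 comparisons, from edgeR on all 9 libraries. The B2m intervals against WT end at -0.17 in both comparisons, and the class II intervals are the widest, that of Cd74 in 3xTg vehicle against WT running from -2.46 to 0.11.

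The class II level moved with the choroid plexus markers from library to library. The 10 markers, led by the thyroid hormone carrier Ttr, summed to 1499, 2681 and 43.5 CPM in the treated 3xTg libraries, 944, 134 and 52.2 CPM in the 3xTg vehicle libraries, and 62.1, 4456.6 and 2404 CPM in the WT libraries. Within each of the 3 groups, the class II sum ranked the 3 libraries in the same order as the choroid plexus sum, and so did H2-Aa, H2-Ab1 and Cd74. H2-Eb1 kept that order in 1 of the 3 groups, H2-K1 in 2, H2-D1 in 1 and B2m in 0. In bulk tissue, fewer cells of a type and less RNA per cell cannot be told apart.

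With a choroid plexus score added as a covariate, a fit chosen after the data were seen, the log2 fold changes of 3xTg vehicle over WT were -0.36 for H2-Aa, -0.31 for H2-Ab1, -0.14 for H2-Eb1 and -0.06 for Cd74. That of B2m was -0.40. For treated over vehicle 3xTg the covariate fit gave -0.31 for H2-Ab1, -0.12 for H2-Eb1, -0.26 for Cd74 and 0.04 for H2-Aa. All 10 choroid plexus markers were lower in 3xTg vehicle than in WT (median log2 fold change -2.56, 5 at an unadjusted p under 0.05, 0 called). Over all genes, 49.8% were below 0 and 7.08% were lower at an unadjusted p under 0.05.

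**Figure D5:**
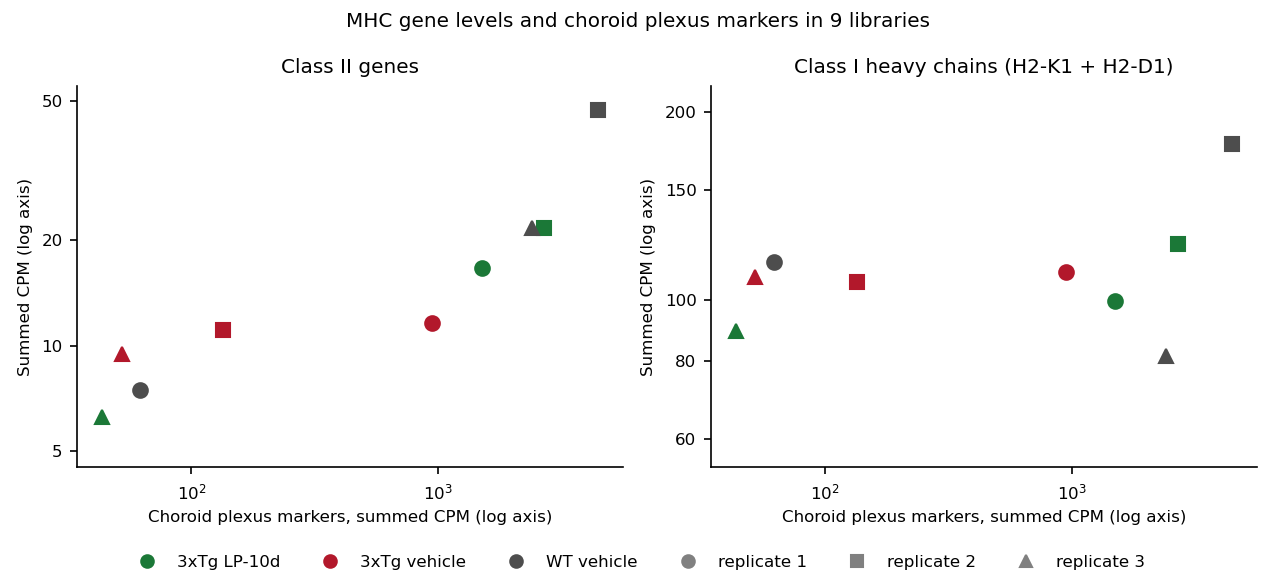
Summed CPM of the 4 class II genes (left) and of H2-K1 and H2-D1 (right) against the summed CPM of 10 choroid plexus markers, both on log axes; each marker is 1 library, its colour the group and its shape the replicate. The class II sum is 6.26 CPM where the choroid plexus sum is 43.5 CPM and 47.0 CPM where it is 4456.6 CPM. The heavy chain sum is also highest there, at 178 CPM, but lowest, at 81.5 CPM, where the choroid plexus sum is 2404 CPM.

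The summed markers of the cells that commonly carry MHC varied less between libraries than the choroid plexus sum. The 12 microglial markers (Tmem119, P2ry12, Csf1r and others) summed to 380 to 467 CPM over the 9 libraries, the 10 border macrophage markers (Stab1, Mrc1, Lyve1 and others) to 35.7 to 51.4 CPM, and the 10 dendritic cell markers to 25.4 to 34.6 CPM. Stab1 alone made 26.0 to 40.1 CPM of the border macrophage sum. In the dendritic sum, Flt3 made 11.3 to 18.5 CPM and Zbtb46 6.4 to 16.9 CPM. These sums thus mostly follow those genes, and the border macrophage marker Ms4a7 ranged from 0.0568 to 0.472 CPM. Of the 10 border macrophage markers, 6 were tested. All 6 had a fold change above 0 in 3xTg vehicle over WT (median log2 fold change 0.25, 0 called), where 49.8% of all genes were below 0. Mrc1 was at 0.0009 ± 0.211, and only Stab1 had an unadjusted p under 0.05 in edgeR. B cell markers summed to 14.6 to 27.6 CPM, monocyte and neutrophil markers to 1.0 to 4.19 CPM, endothelial markers to 211 to 254 CPM and meningeal markers to 234 to 651 CPM. Ighm alone made 13.8 to 26.4 CPM of the B cell sum. T and NK cell markers summed to 24.1 CPM in 3xTg vehicle replicate 2, of which Cd4 made 22.6 CPM, and to 0.768 to 4.0 CPM elsewhere. Defining markers at 0 in all 3 libraries of a group were Xcr1 (dendritic) and Ms4a1 (B cell) in 3xTg vehicle, Ncr1 (NK cell) in WT and Ly6g (neutrophil) in treated 3xTg. No library had more than 3 counts of Xcr1 or more than 1 of Ms4a1, Ncr1 or Ly6g, so these zeros do not set a group apart. Blood markers (haemoglobins and others) had sums of 72.6 to 115 CPM (treated 3xTg), 106 to 177 CPM (3xTg vehicle) and 33.4 to 75.8 CPM (WT). All 5 tested were higher in 3xTg vehicle than in WT (median log2 fold change 1.14, 3 at an unadjusted p under 0.05, 0 called), without overlap of the sums. The hippocampal markers had sums of 1268.3 to 1515.5 CPM (treated 3xTg), 945 to 1417.3 CPM (3xTg vehicle) and 1179.2 to 1646.7 CPM (WT), and 9 of 10 were lower in 3xTg vehicle than in WT (median -0.55, 4 at an unadjusted p under 0.05, 0 called). Over all genes, 49.8% were below 0 in 3xTg vehicle over WT. At an unadjusted p under 0.05, 7.08% were lower and 14.1% differed in either direction. The part of these cell types and tissues in the MHC levels was not tested.

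The wider class I family did not share one direction. Of 17 further heavy chain and class I-like genes listed, 15 were found and 14 tested; 8 were higher and 6 lower in 3xTg vehicle than in WT, the median log2 fold change was 0.07, none was called, and 3 had an unadjusted p under 0.05, against 14.1% of all genes in either direction. H2-Bl, a class I-like gene, had 1.02, 0.889 and 1.1 CPM in treated 3xTg libraries, 1.16, 1.36 and 2.18 CPM in 3xTg vehicle libraries, and 0.171, 0.419 and 0.222 CPM in WT libraries. Every 3xTg library was above every WT library, but H2-Bl was named for the smallest unadjusted p of its list, so this separation partly follows from the choice. The share of all genes that lay higher without overlap is not given here, so the separation of H2-Bl has no background beside it. In the lower direction, 7.99% of all genes had no overlap between 3xTg vehicle and WT. The log2 fold change of H2-Bl in 3xTg vehicle over WT was 2.51 ± 0.398 (edgeR adjusted p = 0.0843) and that of treated 3xTg over WT was 1.87 ± 0.438 (adjusted p = 0.487). These H2-Bl values rest on 3 to 40 counts per library. The nonclassical genes H2-Q1 and H2-Q2 were at 1.83 ± 0.724 and 1.60 ± 0.638, and H2-Q6 at -0.54 ± 0.271 (3xTg vehicle over WT, edgeR adjusted p 0.314 to 0.395). H2-Q1 rests on 1 to 21 counts per library and H2-Q2 on 1 to 26. H2-Q10, outside the rule for named genes and chosen after its values were seen, had 7.26 CPM in 3xTg vehicle replicate 1 and 0.681 CPM or less elsewhere. Genes of this family are near-identical in part, so reads can be split between them.

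Genes that load class I molecules also went both ways. Of 12 tested, 5 were higher and 7 lower in 3xTg vehicle than in WT (median log2 fold change -0.09, 0 called, 4 at an unadjusted p under 0.05, against 14.1% of all genes). The peptide editor Tapbpl was at 0.45 ± 0.143 and the immunoproteasome subunit Psmb10 at 0.59 ± 0.256. Pdia3, the thiol oxidoreductase of the loading complex, was at -0.26 ± 0.0987 and the peptide-trimming Erap1 at -0.34 ± 0.15 (edgeR adjusted p 0.24 to 0.349 for these 4).

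Of the 15 class II accessory genes listed, 14 were found and 12 tested. In 3xTg vehicle, 5 were higher and 7 lower than in WT (median log2 fold change -0.03, 0 called, 1 at an unadjusted p under 0.05, against 14.1% of all genes). Ciita, the class II transactivator, had 4.29, 4.27 and 5.87 CPM in treated 3xTg libraries, 4.47, 5.17 and 4.9 CPM in 3xTg vehicle libraries, and 5.03, 4.56 and 4.0 CPM in WT libraries. Its level did not follow the spread of the class II genes, being 4.56 CPM in WT replicate 2 and 5.03 CPM in WT replicate 1. By the rule for named genes, the thiol reductase Ifi30 was at -1.16 ± 0.389, the costimulatory ligands Cd80 and Cd86 at 0.58 ± 0.314 and -0.38 ± 0.258, and the endosomal protease Lgmn at -0.14 ± 0.125 (edgeR adjusted p 0.261 to 0.612).

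Of 18 regulators of MHC promoters, 6 were higher and 12 lower in 3xTg vehicle than in WT (median log2 fold change -0.08, 0 called, 1 at an unadjusted p under 0.05, against 14.1% of all genes). Nfya, a subunit of the NF-Y factor that binds the Y box of MHC promoters, was at -0.35 ± 0.146 and Rfx5, of the RFX complex, at 0.25 ± 0.115. The interferon regulatory factor Irf2 was at -0.31 ± 0.158 and the interferon-gamma receptor chain Ifngr2 at -0.22 ± 0.118. Their edgeR adjusted p-values lay between 0.333 and 0.421.

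The 28 interferon-response genes had a fold change below 0 in 28 of 28 cases in 3xTg vehicle over WT and in 28 of 28 in treated 3xTg over WT, with median log2 fold changes of -0.50 and -0.52; 49.8% and 50.5% of all genes were below 0 in these comparisons. None was called in either. In each, 9 of the 28 were lower at an unadjusted p under 0.05, beside 7.08% of all genes in the first comparison and 4.67% in the other. Their summed level was 169, 202 and 153 CPM in treated 3xTg libraries, 164, 170 and 176 CPM in 3xTg vehicle libraries, and 237, 262 and 171 CPM in WT libraries. WT replicate 3, the library with 5.04% mitochondrial counts, lay within the range of the 3xTg libraries. In treated over vehicle 3xTg, 10 were above 0 and 18 below, with a median of -0.04. The RNA sensor Ddx58 was at -0.54 ± 0.148, the transcription factor Irf9 at -0.45 ± 0.131, the guanylate-binding protein Gbp2 at -0.66 ± 0.198 and Trim30a at -0.82 ± 0.269 in 3xTg vehicle over WT (edgeR adjusted p 0.2 to 0.251).

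In treated over vehicle 3xTg, none of the 4 other lists held a called gene. The medians there were -0.21 for class I heavy chains, 0.04 for loading genes, -0.01 for class II accessory genes and -0.01 for regulators. In treated 3xTg over WT they were -0.04, -0.01, -0.04 and -0.08 for the same lists, again with 0 called.

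The genes whose level over the 9 libraries was most like the class II mean, out of 13497 protein-coding genes, were Plxnb2 (Pearson r = 0.977, Spearman rho = 0.883), Ucp2 (0.975 and 0.983), Ccdc102a (0.975 and 0.967), Tlr2 (0.967 and 0.95) and Slc4a2 (0.964 and 0.95). Without the 2 libraries farthest from the median of the class II mean, WT replicate 2 and treated replicate 2, r lay between 0.927 and 0.972 for these 5. For the mean of B2m, H2-K1 and H2-D1 the most alike genes were Zfp219 (r = 0.952, rho = 0.867), Bst2 (0.928 and 0.8), Zfp568 (0.926 and 0.867), Nfkbid (0.922 and 0.983) and Ifi27l2a (0.92 and 0.833). Without WT replicate 2 and treated replicate 3, r was 0.46 for Zfp219, 0.373 for Bst2, 0.84 for Zfp568, 0.844 for Nfkbid and 0.498 for Ifi27l2a, so likeness to the class I mean rested for 3 of the 5 on those libraries. These are descriptions over 9 libraries of 3 groups, chosen as the highest of all genes, and the points share library preparation and depth.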

How the data were processed

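RNA was extracted from hippocampus with TRIzol and chloroform, cleaned on RNeasy columns, and 300 ng went into MGIEasy libraries, per the labels' protocols. The deposited tables hold raw counts per gene and FPKM values (fragments per kilobase, scaled by library size), both made by the authors. The submitters' processing notes name mm10. Aligner, counting tool and strandedness: not given in the sources used here. The deposited FPKM equalled counts scaled by library total and a length per gene, with a largest relative deviation of 6.66e-16 over 12350 genes.

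Samples were grouped by the labels, 3 libraries per group. Genes passing filterByExpr (17396 of 33175 with a count) were fitted in 1 edgeR 4.0.16 quasi-likelihood model of all 9 libraries with TMM scaling in R 4.3.3; 3 contrasts of group means were tested, with Benjamini-Hochberg adjustment over all tested genes and a threshold of 0.05. The common biological coefficient of variation was 0.1565. The code was tested on simulated data. Alternatives used DESeq2 1.42.0, limma 3.58.1, other scalings and filters, left-out libraries, a replicate block and the deposited FPKM on a log2 scale with pseudocounts of 0.1 and 1.

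Members, the 5 pathway lists and the 12 marker lists (199 genes, 196 found by symbol) were chosen with earlier results of these data known. All 10 members were named, and in each list those called, completed to 4 by the smallest unadjusted p in 3xTg vehicle against WT. Likeness was the Pearson correlation of log2 CPM among protein-coding genes with a mean of at least 1 CPM. Gene positions matched GENCODE M21 for all 10 members. Promoters were read from a RefSeq table of build GRCm38.p6, in which the start of H2-D1 lies downstream of the GENCODE start. Within each group, no pair of libraries agreed within sampling noise.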

Additional observations from a re-analysis of the deposited data

How the results depend on the processing

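None of the 10 MHC genes was called in any of the 3 comparisons under any of the 22 alternatives, and 1 of the 22 (the choroid plexus score as a covariate) was chosen after the data were seen. Counting each gene in each alternative as 1 value, the sign of the fold change held in 217 values and turned in 3 for 3xTg vehicle over WT. It held in 203 and turned in 17 for treated over vehicle 3xTg, and held in 210 and turned in 10 for treated 3xTg over WT. The 3 turned values were those of H2-K1, H2-D1 and Tap2 without WT replicate 2, and B2m made 10 of the 17. The cause was not tested. Counts per library went down to 15 for H2-Ab1 and 30 for Nlrc5. The number of the 10 genes lower in 3xTg vehicle than in WT at an unadjusted p under 0.05 was 3, and 1 to 7 on leaving out 1 library.

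The number of genes called in 3xTg vehicle against WT was 1, and it was 3 with no filter, 340 with DESeq2, 13 and 5 on log2 FPKM with pseudocounts 0.1 and 1, 0 with the covariate, and 0 to 11 on leaving out 1 library. In treated against vehicle 3xTg it was 0, and it was 1 with DESeq2, 5 and 1 on log2 FPKM, and 0 on leaving out any library. In treated 3xTg against WT it was 0, and it was 46 with DESeq2, 2 and 1 on log2 FPKM, and 0 to 2 on leaving out 1 library.

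For treated over vehicle 3xTg, where B2m was at -0.0026, its log2 fold change was 0.00196 with upper-quartile scaling, 0.00698 with no filter, 0.00283 and 0.00277 on log2 FPKM, and -0.0548 to 0.069 on leaving out 1 library. There the covariate fit gave -0.308 for H2-Ab1, -0.115 for H2-Eb1 and -0.262 for Cd74. For Tap2 in treated 3xTg over WT the value was 0.0455 and 0.0266 on log2 FPKM and 0.00525 with the covariate.

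Leaving out 1 library moved the log2 fold change of 3xTg vehicle over WT between -0.446 and 0.161 for H2-K1, -0.426 and 0.141 for H2-D1, and -0.316 and 0.0267 for Tap2. For treated over vehicle 3xTg it ran from -0.253 to 0.0179 for H2-K1, -0.178 to 0.0292 for H2-D1, -0.0297 to 0.227 for Tap2 and -0.124 to 0.902 for H2-Ab1. For treated 3xTg over WT it ran from -0.541 to 0.06 for H2-K1, -0.472 to 0.0884 for H2-D1, -0.202 to 0.136 for Tap2, -1.14 to 0.123 for H2-Aa and -1.06 to 0.108 for H2-Eb1.

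The deviations of same-numbered libraries from their group means correlated at 0.193, 0.0923 and 0.379 between treated and vehicle 3xTg, and at -0.17 to 0.186 between either 3xTg group and WT. Not every pair was over 0.1 in any comparison, so the numbers were not taken to pair the libraries. Treated replicate 2 correlated better with vehicle replicate 1 (0.181) than with its own number. The fit with a replicate block changed no call among the 10 genes; in it B2m was at 0.00215 in treated over vehicle 3xTg.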
